A study of Homo sapiens with 10 samples.

Results

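Genes of xenobiotic metabolism were followed in 2 human lung adenocarcinoma cell lines after knockout of APEX1, the gene for the base excision repair endonuclease APE1. The members were taken by gene name: cytochromes P450 of families CYP1 to CYP4, UDP-glucuronosyltransferases (UGT), sulfotransferases (SULT), glutathione transferases (GST), alcohol dehydrogenases (ADH), flavin monooxygenases (FMO) and carboxylesterases (CES), together with NQO1 and EPHX1. Of the 28281 gene symbols in the deposited tables, 105 matched these names. After 2 pseudogenes and 31 genes that stayed below 10 counts in all 10 libraries were set aside, 72 members were left: 22 CYP, 17 UGT, 12 GST, 9 SULT, 4 ADH, 4 CES and 2 FMO genes, NQO1 and EPHX1.

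These enzymes clear foreign and endogenous lipophilic compounds in stages. P450s, FMOs, ADHs, carboxylesterases and epoxide hydrolase expose or add a reactive group, and UGTs, SULTs and GSTs then couple it to glucuronic acid, sulfate or glutathione so that the product can be exported. In liver and gut the UGT, ADH and many CYP genes are under HNF4A and nuclear receptors, CYP1 genes answer to the aryl hydrocarbon receptor AHR, and NQO1 and several GST and glutathione genes answer to NRF2. Lung adenocarcinoma cells often keep NRF2 active, which is the setting in which NQO1 and GSTP1 are best known there.

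The groups were A549 with APE1 knockout (A549 KO, 3 libraries), A549 wild type (A549 WT, 3 libraries), H1944 with APE1 knockout (H1944 KO, 2 libraries) and H1944 wild type (H1944 WT, 2 libraries). Poly(A) RNA was sequenced, and no treatment was named. A549 was grown in DMEM and H1944 in RPMI1640 with sodium pyruvate, so line and medium cannot be told apart. The sources used here do not say how the knockout was made or whether the KO libraries are clones or repeat cultures, so the spread behind each p-value may be only technical. The 3 A549 KO columns are named 16, 65 and 66 with no genotype and were taken as the KO group by elimination, since the 3 columns named WT account for the wild type samples.

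Total counts ran from 18314224 to 30219850 per library. APEX1 itself fell in H1944 KO by 1.48 ± 0.04 on the log2 scale, with 2472 and 2612 counts in KO and 5518 and 5103 in WT. In A549 it had 1281, 1417 and 2427 counts in KO 16, 65 and 66 and 3443, 5772 and 5237 in WT 1, 2 and 3, a log2 difference of -1.51 ± 0.30 that was not called (adjusted p = 0.521). The A549 libraries fell into a smaller set (KO 65 and WT 1), with 0.337% and 0.284% of their counts in ribosomal RNA genes, and a larger set (KO 16, KO 66, WT 2 and WT 3), with 14.2%, 7.18%, 6.45% and 6.46%. One 28S copy, RNA28SN4, went the other way, with 5945 and 4839 counts in the smaller set and 0 in the larger. The biological coefficient of variation was 4.74% in H1944 and 39% in A549. Both lines held keratin messages, while the lung markers NKX2-1, SFTPB and SFTPC had at most 6 counts in any library. NAPSA, the fourth lung marker, had 26 and 24 counts in H1944 KO, against 239 and 160 in H1944 WT, and fell by 3.40 ± 0.23 (adjusted p = 2.47e-11); it had 17 to 45 counts in the A549 libraries. The leukocyte markers PTPRC and CD3E had at most 9 counts in any library. CD68, a lysosomal protein on the same list, had 1542 and 1562 counts in H1944 KO, against 603 and 596 in H1944 WT, and rose by 0.95 ± 0.06 (adjusted p = 1.71e-11).

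The promoters below are shown because they belong to members whose results are described in detail and hold a motif of a regulator of the pathway. Each is 250 bases before to 50 bases after an annotated start, from RefSeq on GRCh38.p14. Capitals mark the core of the antioxidant response element that NRF2 binds (TGACNNNGC, or GCNNNGTCA for the other strand).
UGT1A6, chromosome 2, plus strand, chr2:233692640-233692939: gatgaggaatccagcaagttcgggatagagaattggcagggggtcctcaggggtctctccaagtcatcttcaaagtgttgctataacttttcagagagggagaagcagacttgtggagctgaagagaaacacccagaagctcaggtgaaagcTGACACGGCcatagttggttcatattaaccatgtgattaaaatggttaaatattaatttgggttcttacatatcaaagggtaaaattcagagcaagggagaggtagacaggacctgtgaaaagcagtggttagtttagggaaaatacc
UGT2B11, chromosome 4, minus strand, chr4:69214699-69214998: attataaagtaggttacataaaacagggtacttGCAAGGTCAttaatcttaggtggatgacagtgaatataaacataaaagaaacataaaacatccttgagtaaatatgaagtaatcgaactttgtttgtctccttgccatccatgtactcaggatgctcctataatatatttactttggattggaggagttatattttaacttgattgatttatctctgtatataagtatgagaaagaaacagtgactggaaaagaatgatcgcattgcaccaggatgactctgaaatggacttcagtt
CYP4F11, chromosome 19, minus strand, chr19:15934818-15935117: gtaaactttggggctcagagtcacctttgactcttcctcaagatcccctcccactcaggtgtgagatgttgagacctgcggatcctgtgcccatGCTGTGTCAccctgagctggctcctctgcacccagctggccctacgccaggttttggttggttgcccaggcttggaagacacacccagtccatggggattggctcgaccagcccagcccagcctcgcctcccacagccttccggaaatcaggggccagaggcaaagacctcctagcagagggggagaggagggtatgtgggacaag
GSTP1, chromosome 11, plus strand, chr11:67583562-67583861: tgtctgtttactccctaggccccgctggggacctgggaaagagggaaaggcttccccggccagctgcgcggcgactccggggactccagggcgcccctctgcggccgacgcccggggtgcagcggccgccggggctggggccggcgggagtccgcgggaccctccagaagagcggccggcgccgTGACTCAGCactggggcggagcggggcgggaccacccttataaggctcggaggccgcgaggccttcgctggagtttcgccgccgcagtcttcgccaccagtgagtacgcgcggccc
Of the 72 members, 56 matched at least 1 RefSeq window, and these had 65 windows. The antioxidant core stood in 21.5% of the members' windows and in 13.3% of all 35116 windows. Its 14 members were CYP2B6, CYP4F11, CYP4F22, CYP4V2, EPHX1, GSTA4, GSTM1, GSTO1, GSTP1, SULT1C2, UGT1A5, UGT1A6, UGT2B10 and UGT2B11. In H1944 KO 8 of these 14 were called lower and 1 higher, and of all 56 matched members 31 were called lower. UGT1A5 and UGT1A6 share most of their counts. These are matches of letters in short windows and say nothing of binding.

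In H1944 the knockout went with falls of every UGT and ADH gene tested, while the SULT and GST genes moved both ways. UGT2B4, UGT2B11, UGT2B28, UGT2A1, UGT2A2, ADH1C, ADH4 and ADH6 had 0 to 11 counts in each KO library. They could be tested only through their WT counts, so a fall was the only call open to them. Gains of at least 2-fold were seen in CYP2J2, CES4A, SULT2B1, GSTM3 and NQO1. Of the 72 members 65 could be tested, and 13 were higher and 37 lower in KO, which is 76.9% of those tested. Over all 16626 genes tested, 67.1% were called (33.2% higher and 33.9% lower), so the share called among the members is not far above the background. The median log2 fold change was -0.47 over the members and -0.01 over all genes. Some symbols hold the same reads; with each such set counted once, 13 of 55 were higher and 28 lower, and the median was -0.38. At least a 2-fold change was seen in 5 of the 13 higher and 28 of the 37 lower members, or 19 of 28 with shared reads counted once; 21.4% of all genes were called with a change that large. In bulk RNA, fewer cells that express a gene and less RNA per cell cannot be told apart.

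**Figure D1:**
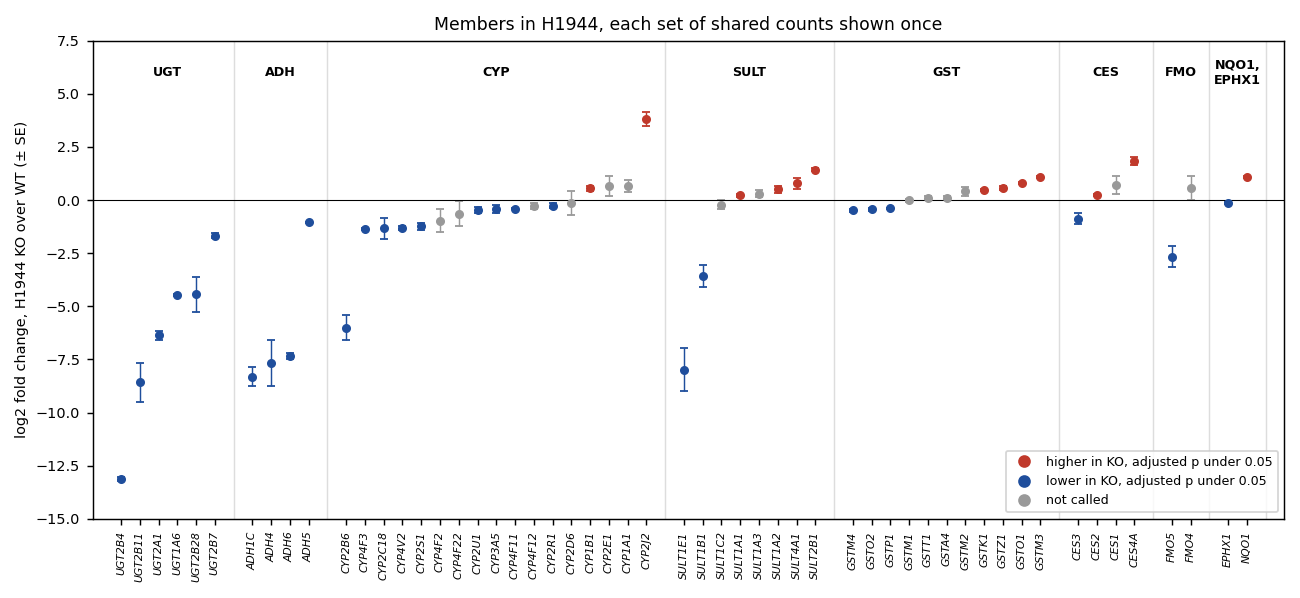
Log2 fold change of H1944 KO over H1944 WT with its standard error for members tested, with shared reads shown once, grouped by family; red points were called higher in KO, blue points lower and grey points were not called. Every UGT and ADH point lies below 0, while the other families have points on both sides; the fitted values of genes with 0 to 3 counts in KO depend on the prior count and are not bounds.

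The UGTs, which attach glucuronic acid to bilirubin, steroids, bile acids and drugs, fell in 15 of 15 symbols tested. Over all genes 33.9% were called lower, but the UGT2 symbols tested, except UGT2B7, could only be called lower. The median log2 fold change was -4.25. As the UGT1A symbols hold mostly the same reads, this median is in effect the value of that locus. UGT2B4, which glucuronidates bile acids and oestrogens in liver, had 2 and 1 counts in H1944 KO 1 and 2, against 11056 and 10727 in WT 1 and 2. It was almost absent from both KO libraries and one of the most abundant members in both WT libraries. Its count was 9706 times lower in KO than in WT, with a 95% Clopper-Pearson interval of 3321 to 47067 that covers counting error only (edgeR adjusted p = 5.81e-28). UGT2A1, an airway and olfactory form, had 5 and 10 counts in KO, against 484 and 459 in WT; it fell by 6.37 ± 0.21 on the log2 scale (adjusted p = 6.58e-17). UGT2A2 is spliced from the same locus and had the same 484 and 459 counts in WT, so the pair is close to a single measurement. UGT2B11 had 0 counts in both KO libraries, against 49 and 33 in WT, at least 18.3-fold lower against a floor of 3 counts per library. UGT2B28 had 0 and 2 counts in KO, against 21 and 16 in WT. UGT2B7, which handles morphine and many other drugs, kept 5.12 and 5.75 CPM (counts relative to the library size, scaled by TMM over all 10 libraries) in KO, against 16.7 and 18.2 CPM in WT, and fell by 1.68 ± 0.13 (adjusted p = 1.08e-10). It was the smallest fall among the UGTs. UGT2B genes are close paralogs and the handling of reads with several alignments was not given, so the split of counts among them is uncertain; a long non-coding gene that overlaps UGT2B11 had 0 counts in KO and 84 and 88 in WT.

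The UGT1A locus on chromosome 2 makes 9 enzymes here by joining separate first exons to a common 3' part, and the deposited counts give the common part to every symbol. The lowest of the 9 counts was 339 and 298 in H1944 KO, against 4570 and 4466 in WT. All 9 symbols fell, with log2 fold changes between -4.47 and -4.23, but this is mainly 1 measurement repeated. Reads beyond the common count point to the first exon in use. UGT1A6, which conjugates small planar phenols, had 37 and 60 counts above the common number in KO, against 1615 and 1504 in WT. Those made up 26.1% and 25.2% of its count in WT 1 and 2, while UGT1A1, the bilirubin enzyme, had 31 and 19 counts above the common number there and UGT1A9 had 1 and 1. UGT1A6 as a whole stood at 13.0 and 11.8 CPM in KO, against 269 and 279 CPM in WT, and fell by 4.47 ± 0.05 (adjusted p = 8.97e-25). The KO and WT libraries did not overlap for any UGT1A symbol, as was so for 82.5% of all genes with 2 libraries a group. Summed over the UGT symbols, with the shared reads counted once, the level was 18.4 and 17.9 CPM in KO, against 790 and 823 CPM in WT.

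**Figure D2:**
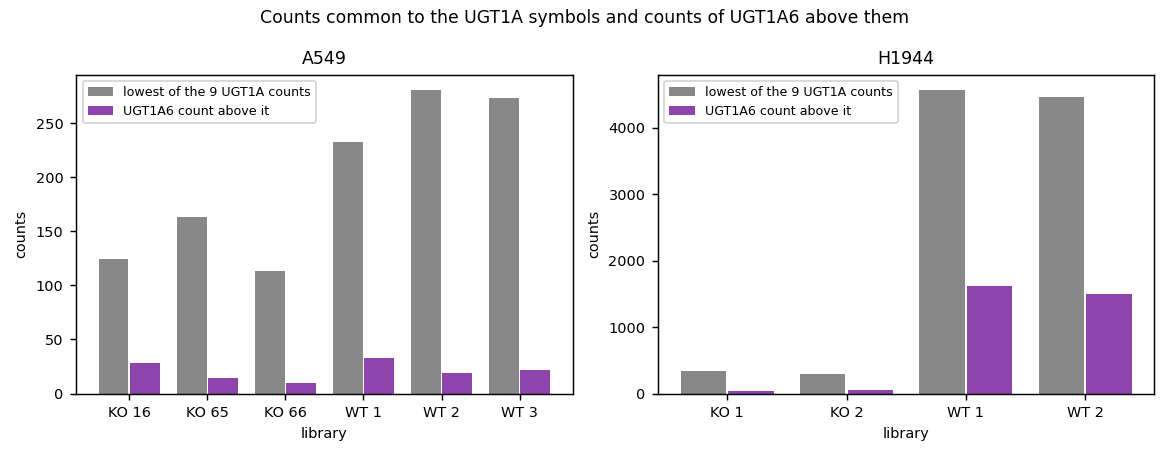
Counts per library of the lowest of the 9 UGT1A symbols (grey bars), taken as the reads of the common exons, and of UGT1A6 above that number (purple bars), in A549 (left) and H1944 (right); KO libraries stand left of WT libraries and the 2 panels have different scales. Both bars are low in the 2 H1944 KO libraries and high in the 2 H1944 WT libraries, where 1615 and 1504 counts are particular to the UGT1A6 symbol.

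The ADHs, zinc enzymes that oxidise alcohols and retinol to aldehydes, fell in 4 of 4 members, where 33.9% of all genes were called lower. Of these members only ADH5 had enough KO counts to be called in either direction. ADH6 had 6 and 11 counts in H1944 KO, against 1083 and 1024 in WT, and fell by 7.35 ± 0.15 on the log2 scale (adjusted p = 1.84e-20). ADH1C, a class I ethanol-oxidising enzyme, had 1 and 0 counts in KO, against 162 and 143 in WT. ADH4 had 0 counts in both KO libraries, against 24 and 19 in WT, at least 9.58-fold lower. ADH5, the formaldehyde-detoxifying class III enzyme found in most cells, stood at 88.1 and 88.1 CPM in KO, against 182 and 183 CPM in WT, and fell by 1.05 ± 0.04 (adjusted p = 3.49e-16). ADH6, ADH1C and ADH4 were close to 0 in both KO libraries, whereas ADH5 kept a clear level there.

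Many of the largest falls lay next to each other on chromosome 4. From UGT2B7 (chr4:69051375-69112987) to SULT1E1 (chr4:69821122-69860145) 8 members follow one another with no other member between them. They are UGT2B7, UGT2B11, UGT2B28, UGT2B4, UGT2A1, UGT2A2, SULT1B1 and SULT1E1. All 8 were called lower in H1944 KO, where 33.9% of all genes were. Apart from UGT2B7 they had 0 to 10 counts in each KO library and could be tested only through their WT counts. A fall was the only call open to them, so 8 of 8 cannot be weighed against that share. UGT2A1 and UGT2A2 are close to a single measurement, and the split of counts among the UGT2B paralogs is uncertain. UGT2B4 (chr4:69480165-69526014) lies in the middle of the run. The neighbours UGT2B15 and UGT2B10 had 0 to 2 counts in each H1944 library and could not be tested. SULT1E1, the oestrogen sulfotransferase, had 0 counts in both KO libraries, against 32 and 22 in WT, at least 12.03-fold lower, and SULT1B1, which sulfates thyroid hormone, had 3 and 4 counts against 36 and 29 and fell by 3.58 ± 0.52. In the ADH cluster the 4 members tested were all lower, from ADH5 (chr4:99070978-99088788) to ADH6 (chr4:99202639-99219246) and ADH1C (chr4:99336497-99352746). Of these, ADH4, ADH6 and ADH1C had so few KO counts that they could only be called lower. ADH1A, ADH1B and ADH7 had 0 to 5 counts in every H1944 library. Coordinates are those of RefSeq on GRCh38.p14; the deposited counts were made on hg38.

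**Figure D3:**
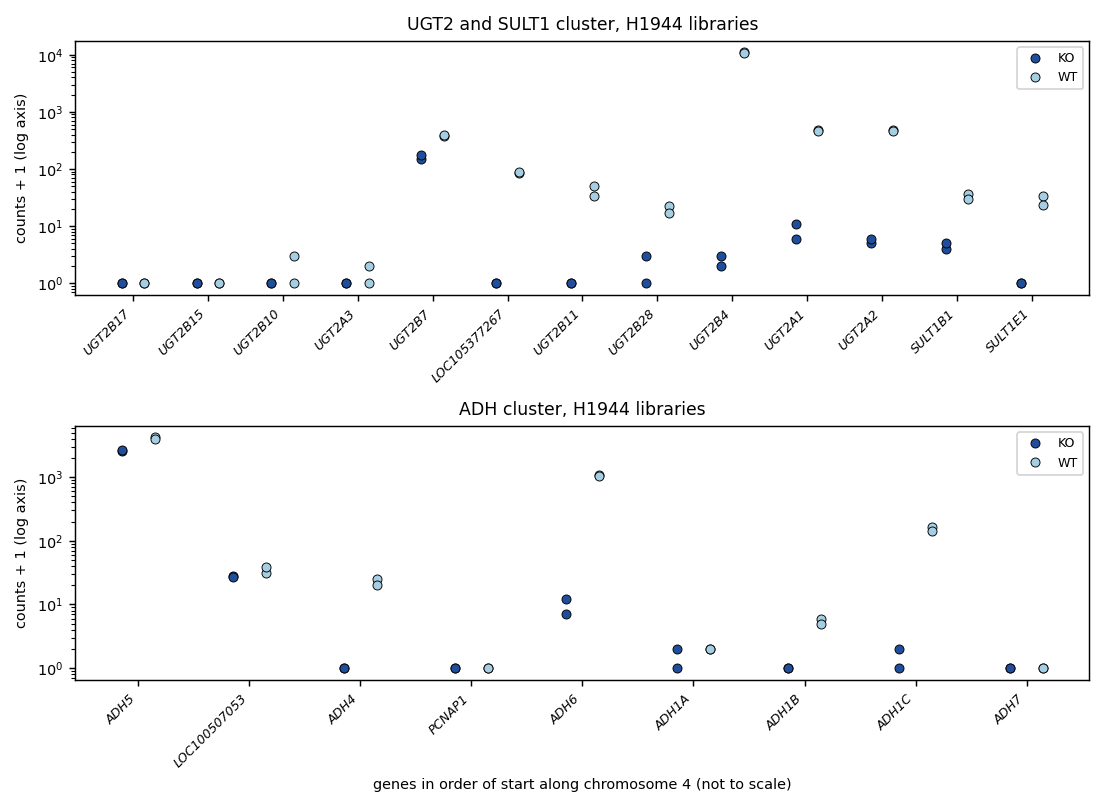
Counts plus 1, on a log axis, of the genes of the UGT2 and SULT1 cluster (top) and the ADH cluster (bottom) in the 2 H1944 KO libraries (dark) and the 2 H1944 WT libraries (light), in order of start along chromosome 4 and not to scale. From UGT2B7 to SULT1E1 every gene has its KO points below its WT points, and UGT2B4 reaches 11056 and 10727 counts in WT.

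Among the P450s, the main oxidases of the pathway, 18 of 22 could be tested in H1944, and 2 were higher and 10 lower. The share called, 66.7%, is near the 67.1% of all genes (33.2% higher and 33.9% lower). CYP2B6, which oxidises bupropion and cyclophosphamide, had 2 and 0 counts in KO, against 57 and 53 in WT. Its pseudogene CYP2B7P, with 13 and 4 counts in KO, against 1469 and 1272 in WT, is nearly the same in sequence, so that reads may have been split between them. The fatty acid omega-hydroxylase CYP4F3 stood at 83.5 and 87.1 CPM in KO, against 219 and 223 CPM in WT, and fell by 1.37 ± 0.04 (adjusted p = 5.18e-18). CYP4F11, its neighbour in family and a vitamin K hydroxylase, stood at 152 and 152 CPM in KO, against 199 and 204 CPM in WT, a smaller fall of 0.40 ± 0.04 (adjusted p = 2.33e-09). Both members kept high levels in KO, and KO and WT did not overlap. CYP4V2 and CYP2S1 fell by 1.31 ± 0.09 and 1.24 ± 0.18. CYP2J2, the epoxygenase that makes epoxyeicosatrienoic acids, went the other way, with 161 and 128 counts in KO, against 10 and 5 in WT, a log2 fold change of 3.84 ± 0.33 (adjusted p = 9.69e-10). It had the largest rise of the members. CYP1B1, which activates polycyclic hydrocarbons and is an AHR target, was higher by 0.55 ± 0.10 (adjusted p = 7.19e-05). The other classic AHR target, CYP1A1, had 54 and 74 counts in KO and 31 and 29 in WT and was not called (log2 fold change 0.67 ± 0.30, adjusted p = 0.0517). The falls of CYP2C18, CYP2R1, CYP2U1 and CYP3A5 were not called by DESeq2 and lost their call when 1 library was left out, CYP2C18 without KO 2 or WT 1, CYP2R1 without KO 2 or WT 2, CYP2U1 without KO 1 and CYP3A5 without KO 1, KO 2 or WT 2.

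The sulfotransferases were split, with 4 of 9 higher and 2 lower, the lower ones being SULT1E1 and SULT1B1 on chromosome 4. In all 66.7% were called, near the 67.1% of all genes. SULT2B1, which sulfates cholesterol and pregnenolone, stood at 86.6 and 82.1 CPM in H1944 KO, against 33.7 and 28.4 CPM in WT, and rose by 1.44 ± 0.06 (adjusted p = 2.02e-13). SULT4A1, a brain form, had 103 and 83 counts in KO, against 37 and 43 in WT (log2 fold change 0.80 ± 0.26, adjusted p = 0.00955). SULT1A2 was higher by 0.52 ± 0.16 (adjusted p = 0.00835). Neither of the last pair was called by DESeq2; SULT4A1 also lost its call without KO 1 or WT 1, and SULT1A2 without KO 2 or WT 2. SULT1A1, the main phenol sulfotransferase, was higher by 0.22 ± 0.06, and SULT1A3 and SULT1A4, which have identical counts in all 10 libraries, were not called.

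The glutathione transferases changed less. Of the 11 tested in H1944, 4 were higher and 3 lower, and the median log2 fold change was 0.11. That is 63.6% called, where 67.1% of all genes were. GSTM3, a mu-class enzyme, stood at 63.8 and 64.9 CPM in KO, against 29.9 and 30.4 CPM in WT, and rose by 1.09 ± 0.06 (adjusted p = 2.57e-13). GSTO1, the omega-class enzyme that reduces arsenicals and dehydroascorbate, rose by 0.80 ± 0.04, and GSTZ1 and GSTK1 rose by 0.58 ± 0.09 and 0.46 ± 0.05. GSTP1, the dominant GST of lung tumours, stood at 629 and 618 CPM in KO, against 821 and 805 CPM in WT, and fell by 0.38 ± 0.03 (adjusted p = 3.54e-10). GSTM4 and GSTO2 fell by 0.47 ± 0.07 and 0.44 ± 0.08. GSTM1 stood at 30.6 and 34.0 CPM in KO and 31.6 and 33.6 CPM in WT, with overlapping libraries and a log2 fold change of -0.01 ± 0.07 (adjusted p = 0.9).

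NQO1, the quinone reductase that is a standard readout of NRF2, had the highest count of the members in every library. It stood at 2845 and 2831 CPM in H1944 KO, against 1313 and 1370 CPM in WT, and rose by 1.08 ± 0.03 (adjusted p = 2.39e-18). Both KO libraries lay above both WT libraries. EPHX1, the microsomal epoxide hydrolase, stood at 284 and 269 CPM in KO, against 315 and 295 CPM in WT, a fall of 0.14 ± 0.04 (adjusted p = 0.00268) that lost its call without KO 2. Among the carboxylesterases, which cleave ester prodrugs, CES4A had 196 and 218 counts in KO, against 46 and 40 in WT; it rose by 1.85 ± 0.19 (adjusted p = 2.64e-08). CES2 rose by 0.22 ± 0.05 and CES3 fell by 0.88 ± 0.26. CES1, the main liver carboxylesterase, stood at 113 and 64.9 CPM in KO 1 and 2, against 55.0 and 53.4 CPM in WT, and was not called (log2 fold change 0.71 ± 0.41, adjusted p = 0.269). KO 1 lay well above the other 3 libraries, and the log2 fold change of CES1 was between 0.26 and 1.06 when 1 library was left out. FMO5 had 8 and 5 counts in KO, against 42 and 21 in WT; it fell by 2.66 ± 0.50 (adjusted p = 7.82e-05).

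Of 26 regulators of these genes (transcription factors and KEAP1, the inhibitor of NRF2) 23 could be tested in H1944. In KO 3 were higher and 18 lower, with a median log2 fold change of -0.58. In all 91.3% were called, where 67.1% of all genes were (33.2% higher and 33.9% lower). NR1H4, the bile acid receptor FXR, had 3 and 5 counts in KO, against 463 and 474 in WT; it fell by 7.24 ± 0.23 (adjusted p = 2.73e-17). HNF4G and HNF4A fell by 2.40 ± 0.08 and 2.89 ± 0.50, although HNF4A had only 28 and 29 counts in WT. FOXA2 had 0 counts in both KO libraries, against 15 and 37 in WT. AHR and NFE2L2, the gene of NRF2, fell by 0.54 ± 0.05 and 0.41 ± 0.04, whereas AHRR, the AHR repressor and itself an AHR target, rose by 1.30 ± 0.13. Of 4 listed AHR targets outside the members, AHRR included, 2 were higher and 2 lower in KO. Their log2 fold changes ran from -0.90 to 1.30. KEAP1 stood at 76.9 and 76.2 CPM in KO, against 107 and 103 CPM in WT. NR1I2, the pregnane X receptor of liver, had 0 to 2 counts in every library. Whether the change of any factor bears on its targets was not tested.

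A list of 19 partner genes held suppliers and carriers of cofactors and electrons, and the microsomal glutathione transferases MGST1, MGST2 and MGST3. In H1944 KO 5 were higher and 9 lower, and the share called, 73.7%, is near the 67.1% of all genes. MGST3 stood at 135 and 127 CPM in KO, against 268 and 282 CPM in WT. MGST1 (866 and 865 against 874 and 902 CPM) and MGST2 (24.4 and 22.0 against 23.3 and 24.5 CPM) changed less. GSS, the glutathione synthetase, rose by 0.72 ± 0.04 (adjusted p = 2.15e-12). SLC35B2, the carrier of the sulfate donor PAPS into the Golgi, rose by 0.51 ± 0.05, and CYB5R3, PAPSS1 and CYB5B were higher by 0.32 ± 0.04, 0.21 ± 0.06 and 0.10 ± 0.04. UGDH, which makes the UDP-glucuronic acid that UGTs use, fell by 1.18 ± 0.03 (adjusted p = 9.75e-19). The electron donor CYB5A fell by 2.33 ± 0.05 and glutathione reductase GSR by 1.68 ± 0.03, while POR, the P450 reductase, fell by 0.42 ± 0.05. GCLC, the catalytic subunit of glutathione synthesis, fell by 1.03 ± 0.04. Of 22 NRF2 targets outside the members, 5 were higher and 13 lower in KO, and 81.8% were called; NQO1 was higher, as were 5 of that list. AKR1B10 fell by 3.39 ± 0.03, AKR1C1 by 0.70 ± 0.03 and SRXN1 by 0.50 ± 0.03, and HMOX1 rose by 0.70 ± 0.04. Of 17 other metabolising enzymes tested, among them methyltransferases and amine oxidases, 7 were higher and 6 lower, and 76.5% were called.

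Some markers of cell identity also changed in H1944 KO, in both directions. Of 5 epithelial markers, EPCAM, CDH1 and KRT19 fell in H1944 KO and KRT8 and KRT18 rose; the summed list ranged from 17144 to 17568 CPM in KO and from 9595 to 9746 CPM in WT. The 3 intestinal markers summed to 16.8 to 17.3 CPM in KO and 610.2 to 610.4 CPM in WT, almost wholly through CDH17, which had 104 and 94 counts in KO and 13506 and 12504 in WT. The 6 hepatocyte markers summed to 550 to 562 CPM in KO and 1820 to 1822 CPM in WT, almost wholly through CPS1, a urea cycle enzyme, while ALB, APOA1, APOB and TTR had at most 14 counts in any library. The part of these changes in the fall of the UGT and ADH genes was not tested.

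In A549 no member was called. Of the 72 members 49 could be tested, and edgeR called 0, where 1 of 15806 genes (0.00633%) was called in all. An unadjusted p under 0.05 was reached by 16 members, or 32.7% of those tested, where 5.66% of all genes reached it; with shared reads counted once it was 8 of 40, or 20%. DESeq2 called 9 members, all lower, of 125 genes in all: CYP4F11 and 8 of the 9 UGT1A symbols. With 3 libraries a group an exact permutation test cannot give a 2-sided p below 0.1. The KO and WT libraries did not overlap for 7 members that were higher and 11 that were lower in KO, or 7 and 3 with shared reads counted once, where 10.6% of all genes did not overlap (5.64% higher and 4.98% lower).

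CYP4F11 stood at 33.5, 33.1 and 29.4 CPM in A549 KO 16, 65 and 66, against 70.7, 75.7 and 72.6 CPM in WT 1, 2 and 3. All 3 KO libraries were below all 3 WT libraries, and each was lower than the WT libraries of its own set, by 1.15, 1.09 and 1.33 on the log2 scale. The log2 fold change was -1.16 ± 0.17 (unadjusted p = 0.000209, edgeR adjusted p = 0.505, exact permutation p = 0.1). The lowest UGT1A count was 124, 163 and 113 in KO, against 233, 281 and 273 in WT, again with no overlap. UGT1A6 had a log2 fold change of -0.95 ± 0.22 (adjusted p = 0.583) and within the sets was lower in KO 16, 65 and 66 by 0.98, 0.66 and 1.31. Here UGT1A6 had 28, 14 and 10 counts above the common number in KO and 33, 19 and 22 in WT, so the common exons carried most of its count in A549.

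Several members were higher in every A549 KO library than in every WT library, none of them called. CYP2S1, a dioxin-inducible P450 of epithelia, stood at 88.1, 101 and 80.1 CPM in KO 16, 65 and 66, against 40.0, 54.8 and 57.0 CPM in WT 1, 2 and 3 (log2 fold change 0.86 ± 0.20, adjusted p = 0.567). SULT2B1 stood at 28.6, 20.6 and 50.2 CPM in KO, against 10.7, 15.9 and 17.9 CPM in WT (1.19 ± 0.37, adjusted p = 0.729). ADH1C had 134, 264 and 94 counts in KO, against 13, 55 and 63 in WT (1.90 ± 0.62, adjusted p = 0.766), with the widest gap in the smaller library set. CYP2F1, a lung P450 that activates naphthalene, had 10, 14 and 12 counts in KO, against 3, 1 and 2 in WT (2.48 ± 0.55, adjusted p = 0.567). FMO4, UGT2B11 and CES4A were the others. CYP2D6 had 1 and 0 counts in the smaller set (KO 65 and WT 1) and 22 to 53 in the larger, so its level followed the set and not the genotype. GSTT2B had 28 counts in KO 66 and 0 in the other 9 libraries. GSTT2, set aside as a pseudogene, had the same counts in every library, so these reads cannot be assigned to GSTT2B alone.

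**Figure D4:**
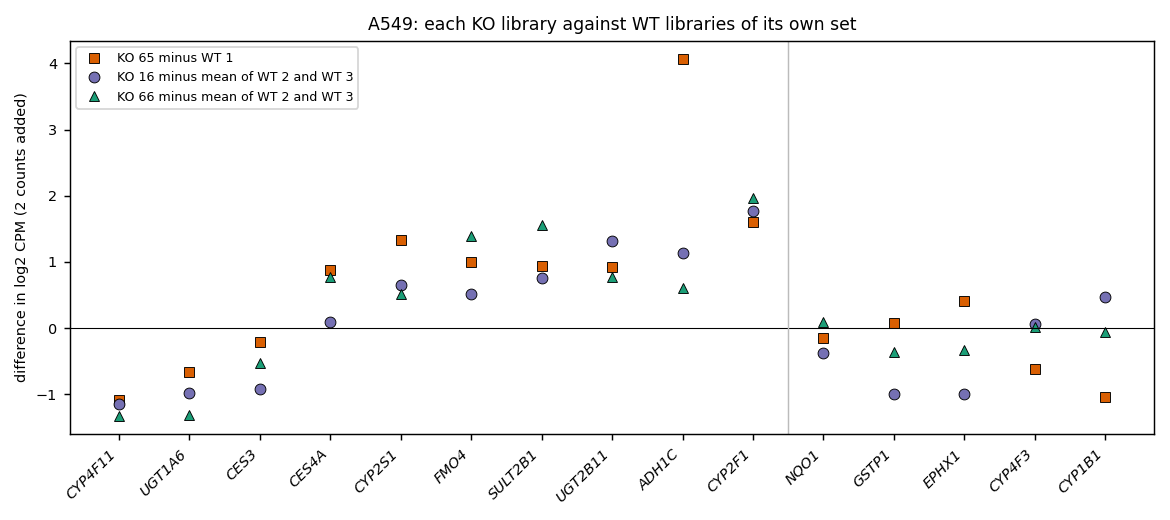
Difference in log2 CPM, with 2 counts added, between each A549 KO library and the A549 WT libraries of its own library set, for the 10 members whose KO and WT libraries did not overlap once the UGT1A symbols are shown as UGT1A6 alone (left of the line), and for 5 abundant members (right). CYP4F11 and UGT1A6 are below 0 in all 3 KO libraries and CYP2S1, SULT2B1 and CYP2F1 above it, whereas CYP4F3 and CYP1B1 have both signs.

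The difference between the lines was tested in 1 fit of all 10 libraries, as the A549 change minus the H1944 change. It was called for 20 of the 69 members tested, 18 higher and 2 lower, where 6.95% of all genes were called (4.1% higher and 2.85% lower); with shared reads counted once 10 were higher. ADH6 differed by 7.79 ± 0.50 on the log2 scale (adjusted p = 0.000219), since it had 61, 113 and 68 counts in A549 KO, against 57, 51 and 64 in A549 WT, beside its loss in H1944. UGT1A6 differed by 3.49 ± 0.25 (adjusted p = 0.000307), its fitted change being below 0 in both lines and nearer to 0 in A549. CYP2S1 differed by 2.07 ± 0.31 (adjusted p = 0.00533), with values above 0 in A549 and a fall in H1944. NQO1 differed by -1.22 ± 0.26 (adjusted p = 0.0251), a call that was lost without any 1 of the 4 H1944 libraries and without A549 WT 2 or WT 3 (adjusted p up to 0.151). It stood at 1272, 1361 and 1755 CPM in A549 KO, against 1513, 1659 and 1645 CPM in A549 WT, with overlapping groups. CYP4F11 differed by -0.79 ± 0.18 (adjusted p = 0.0339), its A549 value being the more negative; this call was lost without the same libraries (adjusted p up to 0.181) and without the filter on low counts. UGT2B4 differed by 12.3 ± 1.25 (adjusted p = 0.000955), but it had 0, 5 and 2 counts in A549 KO and 5, 4 and 3 in A549 WT, where a fall could not have been seen at this depth. CYP2B6, GSTT1, SULT4A1, UGT2A1 and UGT2A2 had 0 counts in all 6 A549 libraries, and no A549 change could be measured for them.

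**Figure D5:**
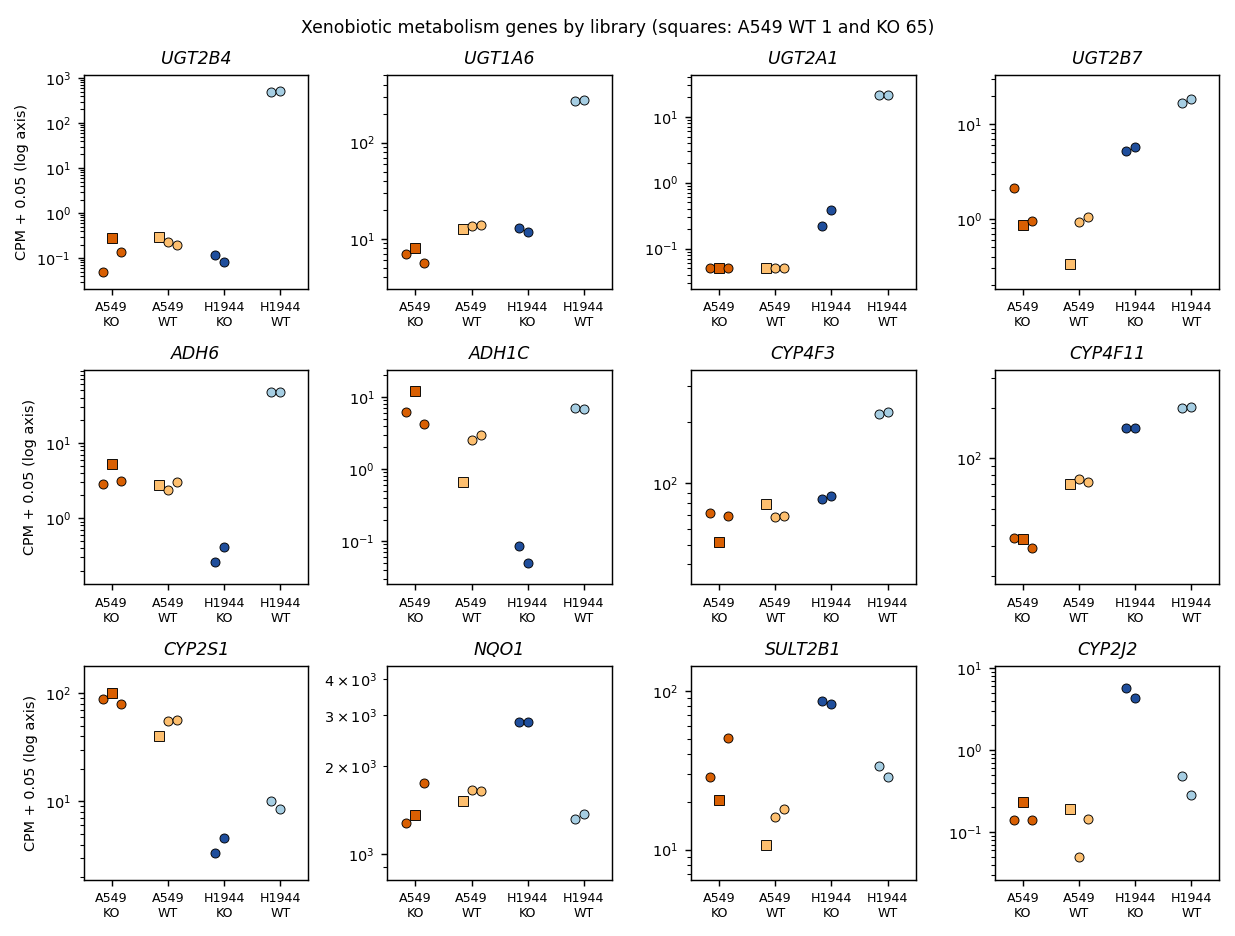
Scaled CPM plus 0.05, on a log axis, of 12 members in every library, with A549 KO, A549 WT, H1944 KO and H1944 WT from left to right and the 2 libraries of the smaller A549 set drawn as squares. UGT2B4, UGT1A6, UGT2A1 and ADH6 are high in the 2 H1944 WT libraries and low in all others, the CYP4F11 points of KO lie below those of WT in both lines, and NQO1 is highest in the 2 H1944 KO libraries.

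The lines already differed with APEX1 intact. Of 62 members tested, 4 were higher in A549 WT than in H1944 WT and 41 lower, where 41.2% of all genes were called (20% higher and 21.2% lower), and the median log2 fold change was -1.97 over the members, or -1.49 with shared reads counted once. All 15 UGT and all 9 SULT symbols tested were lower in A549 WT. The UGT1A symbols are mainly 1 measurement, and UGT2A1 with UGT2A2 and SULT1A3 with SULT1A4 had the same counts. UGT2A1, UGT2A2, UGT2B4, UGT2B28, SULT1B1, SULT1E1 and SULT4A1 had 0 to 5 counts in each A549 WT library and could only be called lower. UGT2B15, which was not tested, went the other way. It had 5, 16 and 7 counts in A549 WT 1, 2 and 3 and 0 in both H1944 WT libraries. UGT2A1 had 0 counts in all 3 A549 WT libraries, against 484 and 459 in H1944 WT, at least 151-fold lower. GSTT1 likewise had 0 counts in A549 WT, against 368 and 333 in H1944 WT, at least 112-fold lower, and GSTM1 had 2 counts in all over the A549 WT libraries, against 728 and 719. The 4 higher in A549 WT were CYP1B1 (3.60 ± 0.54, adjusted p = 0.00714), CYP2S1 (2.45 ± 0.23, adjusted p = 0.00234), CES3 (1.38 ± 0.21, adjusted p = 0.00721) and CYP3A5 (0.69 ± 0.18, adjusted p = 0.0346). CYP1B1 stood at 236, 97.4 and 98.4 CPM in A549 WT 1, 2 and 3, against 12.6 and 11.2 CPM in H1944 WT. The calls of CYP1B1 and CES3 were lost without either H1944 WT library, and that of CYP3A5 also without A549 WT 2 or 3. In all, 25 of the 45 calls remained without H1944 WT 1 and 26 without H1944 WT 2.

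Levels per kilobase of exon were ranked for 58 of the 72 members; the 9 UGT1A symbols, UGT2A1, UGT2A2, SULT1A3, SULT1A4 and GSTT1 were not ranked. Among the 58, GSTP1 and NQO1 took the first 2 places in every group. In A549 KO the highest ranked levels were those of GSTP1, at 793 ± 202 CPM per kb (SD, n = 3), NQO1, at 468 ± 82.3, and EPHX1, at 99.0 ± 30.5. A549 WT had the same order, with 1100 ± 386, 514 ± 25.7 and 119 ± 21.1 CPM per kb (SD, n = 3). In H1944 KO NQO1 came first, at 908 ± 3.15 CPM per kb (SD, n = 2), before GSTP1 at 649 ± 8.18 and EPHX1 at 134 ± 5.36. In H1944 WT GSTP1 came first at 846 ± 12.03, then NQO1 at 429 ± 13.0, UGT2B4 at 232 ± 7.13 and EPHX1 at 148 ± 6.83 CPM per kb (SD, n = 2). The ranges of these neighbours did not overlap within any group.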

How the data were processed

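Raw counts per gene symbol were deposited for each line in a table of its own, with no normalization. Per the submitters' processing notes the tools were Trim Galore 0.5.0, HISAT2 2.1.0, featureCounts 1.6.4 and DESeq2, on hg38; annotation, strand and the handling of reads with several alignments are not given in the sources used here, so values of overlapping genes and close paralogs are uncertain. No per-sample column was left unused. The members, gene lists and tests were chosen with earlier results of these data known.

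After filterByExpr with a minimum count of 10, library sizes were adjusted by TMM. Groups were compared in edgeR 4.0.16 (R 4.3.3) by its quasi-likelihood test in robust form, and p-values were adjusted by Benjamini-Hochberg over all genes tested, with a threshold of 0.05. Adjusted p-values with no other tool named are from edgeR. Each line had its own fit, and the difference between lines came from 1 fit of all 10 libraries. Errors after ± beside log2 fold changes are standard errors, each obtained as the size of the change divided by the root of its F statistic. A count of 0 was read against a floor of 3 counts per library, or 0.0986 to 0.143 CPM on the TMM scale. Only counting error enters these floors and the 95% intervals. Exon lengths are the union of exons of each gene in the GENCODE basic annotation on GRCh38. No molecular identifiers are named in the labels, so reads of 1 molecule may be counted more than once. Replicate pairs differed by more than counting noise, and each library was counted as 1 sample. The chi-square per gene was 1.90 for A549 WT 2 and 3, the closest pair, and 2.95 and 3.37 for the H1944 KO and WT pairs. It was 240 and 238 for A549 WT 1 against WT 2 and WT 3, and 135 to 273 among the A549 KO libraries. These values do not show whether the libraries are independent. Equally numbered H1944 libraries did not deviate together (correlation 0.01). DESeq2 1.42.0, limma-voom (limma 3.58.1), other scalings and filters, left-out libraries and library sets were alternatives. The fits were tested on simulated data. Named members were the 4 markers UGT2B4, UGT1A6, ADH6 and CYP4F11, NQO1, EPHX1 and members of at least 50 CPM. By a rule of size the largest called changes of each comparison were also named. CYP1A1, CYP2D6, CYP2B7P, GSTT2, GSTT2B, SULT1A1, SULT1A3 and the cluster neighbours were named after their values were seen. A few genes covered by these choices are not reported here.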

Additional observations from a re-analysis of the deposited data

Results flagged for a closer look

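For 20 members the test of the difference between lines itself was called, the A549 change minus the H1944 change on the log2 scale. It was positive for ADH1C (10.14), ADH5 (1.035), ADH6 (7.793), CYP2F1 (8.157), CYP2S1 (2.065), CYP4F3 (1.204), SULT1B1 (8.918), UGT2B11 (9.658) and UGT2B4 (12.3). It was also positive for the UGT1A symbols, which share reads: UGT1A1 (3.312), UGT1A3 (3.191), UGT1A4 (3.217), UGT1A5 (3.222), UGT1A6 (3.492), UGT1A7 (3.162), UGT1A8 (3.217), UGT1A9 (3.2) and UGT1A10 (3.242). It was negative for CYP4F11 (-0.7871) and NQO1 (-1.215). The values of CYP2F1, SULT1B1 and UGT2B11 rest on groups with 0 counts and depend on the prior count. Those of ADH1C and UGT2B4 rest on few counts in H1944 KO, 1 and 0 for ADH1C and 2 and 1 for UGT2B4. With 1 library left out they ran from 9.28 to 12.15 for ADH1C and from 11.17 to 12.86 for UGT2B4. The calls of ADH5, CYP4F3, CYP4F11, NQO1 and SULT1B1 were lost without any 1 of the 4 H1944 libraries, those of CYP4F3, CYP4F11 and NQO1 also without A549 WT 2 or WT 3, and the other 15 remained in each of these fits.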

How the results depend on the processing

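In H1944 the block on replicate number kept all 50 member calls, and DESeq2 kept 44. Without the low-count filter the median was -0.68. With all 10 libraries in 1 fit 2522 genes and 5 higher members were called, and 30 of the 50 calls remained. Leaving out 1 library gave 33 to 36 lower and 12 to 16 higher members. For the A549 libraries no paired analysis was possible because the KO columns carry no replicate numbers.

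In A549 the genes called were 2 without the filter, 125 with DESeq2 (9 lower members), 2 with library set as a term, 0 in the larger set alone, 16 in 1 fit of all libraries (1 lower member, CYP4F11) and 0 to 0 with 1 library left out. The difference between lines gave 1 lower member without the filter, 2318 genes with DESeq2, 3394 genes and 5 lower members with the larger A549 set, and 10 higher members with shared reads counted once. With 1 library left out it gave 397 to 2892 genes, 15 to 21 higher and 0 to 5 lower members. A549 WT against H1944 WT gave 13851 genes and 11 higher members with the larger set, 12406 genes and a median of -2.36 with the smaller set, and a median of -1.49 with shared reads counted once. With 1 library left out it gave 1527 to 13851 genes, 1 to 11 higher and 24 to 45 lower members.

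Signs turned for small, uncalled values in A549 and in the difference between lines. In A549, ADH5 was -0.02597 with DESeq2 and -0.02598 with its size factors, -0.0182 without the filter, -0.0172 in 1 fit of all libraries and -0.0833 in the larger set, where CYP1B1 was 0.24, CYP4F3 0.0506, GSTK1 -0.11 and GSTM3 -0.00979. With 1 library left out ADH5 ran from -0.0635 to 0.0645, CYP1B1 from -0.55 to 0.28 and GSTK1 from -0.11 to 0.21. In the difference, CES2 was -0.005937 with DESeq2 and -0.00594 with its size factors, -0.00833 without the filter, -0.000705 with limma-voom and -0.12 with the larger set; with 1 library left out CES2 ran from -0.0837 to 0.12, EPHX1 from -0.34 to 0.0943 and GSTP1 from -0.35 to 0.0846. Against H1944 WT, GSTK1, GSTO1 and GSTP1 were called with opposite signs, lower with the smaller A549 WT set (-0.27, -0.27 and -0.37) and higher with the larger (0.47, 0.64 and 0.65), and were not called with both. The cause was not tested. In A549 the spread between libraries, and for UGT2B4 and UGT2A1 the depth, limit what can be seen.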

Other observations

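Enzymes of xenobiotic metabolism outside the member families, named after their values were seen, also moved in H1944 KO. NNMT, which methylates nicotinamide, had 16198 and 17022 counts in KO, against 6719 and 6360 in WT; it rose by 0.93 ± 0.03 (edgeR adjusted p = 2.07e-16). In A549 it had 336, 940 and 1319 counts in KO 16, 65 and 66, against 1537, 1580 and 1506 in WT 1, 2 and 3, the opposite direction with no overlap but no call (log2 fold change -0.87 ± 0.43, adjusted p = 0.941). AS3MT, the arsenic methyltransferase, had 67 and 81 counts in KO, against 13 and 16 in WT; it rose by 1.92 ± 0.33 (adjusted p = 2.73e-05). The thiopurine methyltransferase TPMT rose by 0.69 ± 0.07 (adjusted p = 1.21e-08). HNMT, which inactivates histamine, had 73 and 49 counts in KO, against 158 and 142 in WT; it fell by 1.71 ± 0.22 (adjusted p = 4.79e-07). The carbonyl reductase CBR3 and the soluble epoxide hydrolase EPHX2 fell by 1.66 ± 0.18 and 1.05 ± 0.12.

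MAOA, the mitochondrial amine oxidase, had 205 and 268 counts in H1944 KO, against 76 and 79 in WT, and rose by 1.18 ± 0.18 (adjusted p = 4.28e-06). In A549 it had 199, 707 and 128 counts in KO 16, 65 and 66, against 66, 73 and 47 in WT 1, 2 and 3, with no overlap but no call (log2 fold change 2.44 ± 0.65, adjusted p = 0.659).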
